A study of Mus musculus with 12 samples.

Results

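The comparison described here is that of running with inactive myostatin-reduced mice, in RNA from the triceps brachii, a muscle of the upper forelimb. Its members were chosen by level. Of the 10187 genes in the deposited table, 7242 had a mean normalized read count of at least 10 over the 6 muscles compared and were tested, including all 13 mitochondrial genes. The muscles came from 3 active (AM) and 3 inactive (IM) mice, which the labels call active and sedentary Mstn-deficient, out of 12 male C57/BL6 mice in the series. Both groups carried Mstn genes with a floxed exon 3. All 12 mice, the wild-type controls included, ate chow with 0.025% tamoxifen for 6 weeks in all, and the chow depleted myostatin only where the gene was floxed. Myostatin was thus reduced in adult animals rather than absent from birth. At 6 months of age the active mice were moved to single cages with a running wheel for 12 weeks, while all mice had been kept in small groups until then, so that running and single caging cannot be told apart. The wild-type mice, of normal Mstn genotype, formed an active (AW) and an inactive (IW) group of 3 each. They are used to show where the myostatin-reduced mice differed, and the test took its estimate of spread from all 12 mice. Each sample is 1 mouse, and p-values measure the spread between mice within the 4 groups of 3.

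Myostatin is a secreted growth factor of the TGF-beta family that restrains muscle mass, and muscles made without it are large and rich in fast, glycolytic fibres. Muscle fibres are classed by the myosin heavy chain they hold, from the slow type I (Myh7) through the fast oxidative type IIa (Myh2) and the intermediate type IIx (Myh1) to the fast glycolytic type IIb (Myh4). Endurance running is known to move fibres toward the oxidative end of this series, to add mitochondria and capillaries, and to favour fat and lactate as fuels. The question addressed by the comparison is how muscle messages differ with running when myostatin is low.

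Mstn itself was low in every muscle of the comparison, at 18.3, 17.2 and 21.6 normalized reads in IM mice against 16.1, 8.70 and 13.5 in AM mice. All of these lay below the 79.7 to 138 of the 6 wild-type mice, so the genotype labels held in each library. The difference between AM and IM mice was -0.58 on the log2 scale and did not pass the test (limma, adjusted p = 0.127). The estimated depth was 9023551 to 12184219 reads per sample, at which a floor of 3 reads corresponds to 0.231 to 0.316 normalized reads, a limit that covers counting error only. Libraries of a group correlated at 0.990 to 0.995 in IM mice and at 0.982 to 0.985 in AM mice. Muscle fibre markers dominated every library, so the tissue label held. The AM mice did not form a tight group. AM mouse 3 had the lowest slow-fibre genes of the group, while AM mouse 2 had the highest levels of most respiratory chain, fatty acid and vascular genes.

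Running mice differed from inactive ones in 568 genes (7.84% of the 7242 tested) at an adjusted p-value under 0.05 in limma. Of these, 383 genes (5.29%) were higher and 185 (2.55%) were lower in AM mice. The median change over the called genes was 0.47 on the log2 scale for those higher and -0.41 for those lower, against a median of -0.02 over all genes. Changes above a doubling, that is beyond 1 on the log2 scale, were seen in 35 called genes, and 3 called genes fell below -1. All 3 AM mice lay above all 3 IM mice in 1042 genes (14.4%) and below them in 1113 (15.4%). The levels closest to the minimum were means of 10 for Zfp790, which was tested, and 9.998 for Dpy19l3, which was not. The number of called genes depended on single mice. It was 90 without AM mouse 2 and 1097 without AM mouse 1, and it was 220, 146 and 125 without IM mouse 1, 2 or 3.

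The myosin heavy chains showed a shift from type IIb to types IIx and IIa. Myh1 (chr11:67013554-67038078 in mm9) stood at 2929, 2643 and 1727 normalized reads in IM mice and at 11194, 14698 and 9429.9 in AM mice. Every active mouse was several times higher than every inactive one, and the change was 2.29 ± 0.321 (SE) on the log2 scale (adjusted p = 0.00792). Myh2, next to it on chromosome 11, rose from 354, 557 and 89.9 to 2932, 3323 and 1015, a change of 3.03 ± 0.758 (adjusted p = 0.0314). The groups did not overlap, but AM mouse 3 lay well below the other two, and without AM mouse 2 the adjusted p was 0.136. Myh4 fell from 106795, 104829 and 106207 to 66296, 54104 and 78856. That was a change of -0.69 ± 0.181 (adjusted p = 0.0366), with all AM mice below all IM mice, and it stayed called in 11 of 20 other settings. Under quantile normalization its change was 0, because Myh4 had the highest value of every library. The slow myosin Myh7 did not pass the test (3.34, adjusted p = 0.302). It was at 164 and 393 in AM mice 1 and 2 but at only 2.73 in AM mouse 3, within the 1.43 to 9.02 of the IM mice. Myh1, Myh2 and Myh4 are close relatives lying side by side, and reads common to several of them could have been split between them by the counting.

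**Figure D1:**
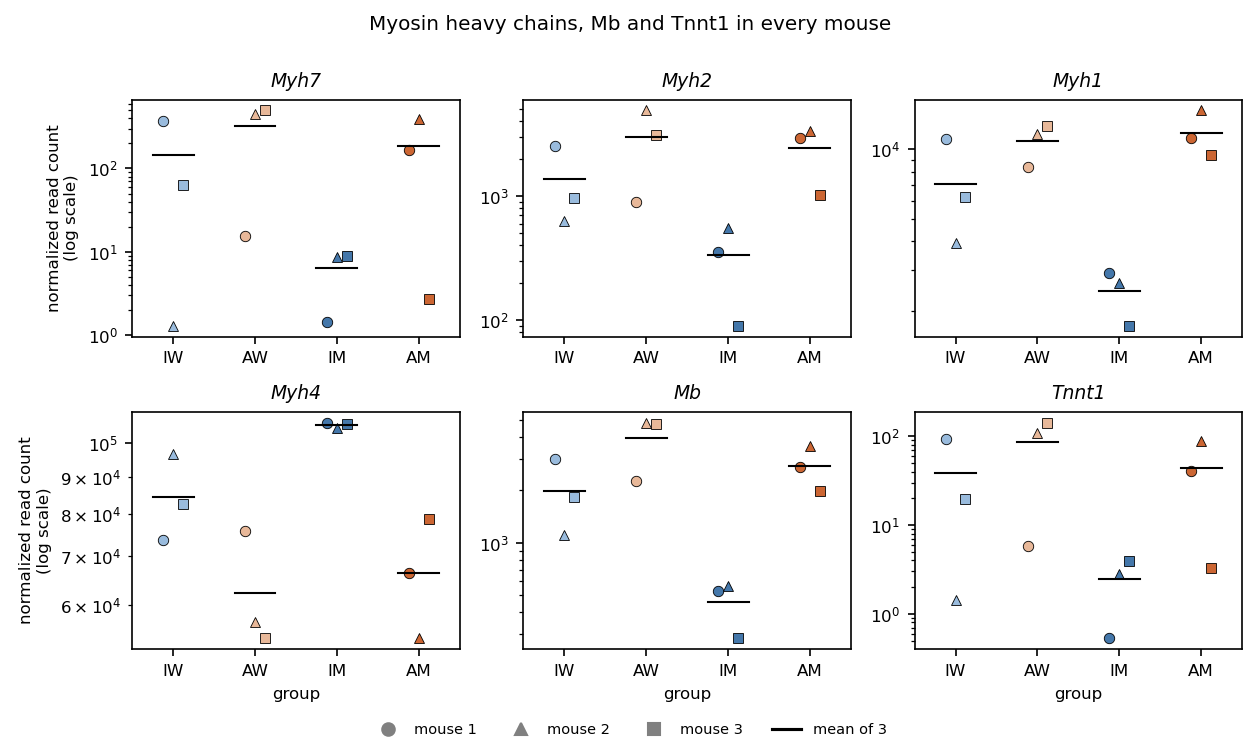
Normalized read counts of 4 myosin heavy chain genes, Mb and Tnnt1 in each mouse, on log axes, for the inactive (IM) and active (AM) myostatin-reduced groups and the wild-type groups. Points are mice, by number, and bars are means of 3. Myh1 and Myh2 are higher and Myh4 lower in all 3 AM mice than in all 3 IM mice, whereas Myh7 overlaps because AM mouse 3 is at 2.73.

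Of 19 slow-fibre genes, 15 reached the minimum mean of 10, and 10 of these had a mean under 10 in IM mice. Those 10 entered only through the active mice and had to be higher there, so the direction of the list is partly set by the filter. The test called 5 genes (33.3%), all higher, where 5.29% of all genes were called higher. The 5 did not include the slow myosin or the slow troponins. They were myoglobin (Mb), which stores oxygen, cardiac calsequestrin (Casq2, 1.88), the Z-disc protein alpha-actinin (Actn2, 1.62), the M-band protein myomesin (Myom3, 2.62) and the stretch-responsive Ankrd2 (2.33), whose mean in IM mice was 7.36. The calls were 2 without AM mouse 2 or IM mouse 3 and 3 without either other IM mouse. Mb stood at 531, 565 and 284 in IM mice and at 2704, 3565 and 1969.6 in AM mice, a change of 2.60 ± 0.389 (adjusted p = 0.00813). The lowest AM mouse was still more than 3-fold above the highest IM mouse. By contrast Tnnt1, the slow troponin that links the filament to tropomyosin, stood at 0.53, 2.81 and 3.97 in IM mice against 40.4, 89.3 and 3.32 in AM mice. It overlapped between the groups through AM mouse 3, as did Myl2, Myl3, Tnnc1 and Tnni1. In all 15 slow-fibre genes AM mouse 3 was the lowest and AM mouse 2 the highest of the active mice. The summed level of the slow-fibre list was 1019, 1072 and 703 in IM mice against 4428, 6572 and 3010.2 in AM mice, without overlap. Mb and Actn2 made up 76.6% to 94.3% of the sum over the 15 tested genes, and without that pair it was 96.5, 137.5 and 98.4 in IM mice against 749, 1532 and 172 in AM mice. AM mouse 3 was then close to the IM mice. With a score of slow-fibre genes in the model as a covariate, 244 genes were called in place of 568, 21 of them in complex I and 28 in complexes II to V. In bulk muscle, more fibres of a type and more RNA in each such fibre cannot be told apart.

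Among the 20 fast-fibre genes, Myh1 and Myh2 rose and 4 fell (30% called, against 7.84% of all genes). Besides Myh4 these were Mybpc2 (-0.59), the fast myosin-binding protein C, Myoz3 (-0.36), a Z-disc protein, and Mylk4 (-0.85), a relative of the myosin light chain kinases. Mylk4 stood at 2423, 2434 and 2840.2 in IM mice and at 1708, 1050.0 and 1606 in AM mice, with no overlap (adjusted p = 0.0139). The fast troponins Tnnt3, Tnni2 and Tnnc2 had changes between -0.11 and -0.10 and were not called. Mybpc1, the slow myosin-binding protein C, went from 1118, 1277 and 899.3 to 2276, 3119 and 2418 (1.25 ± 0.262, adjusted p = 0.0166). The 6 calls among fast-fibre genes became 1 without AM mouse 2 and 2, 3 and 1 without IM mouse 1, 2 or 3.

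Among called genes averaging 50 or more over the 6 muscles, whose groups did not overlap, Myh2 had the largest rise, followed by Ldhb, the lactate dehydrogenase subunit typical of oxidative tissue, at 40.4, 43.2 and 14.8 in IM mice against 212, 268 and 151 in AM mice. Its change was 2.75 ± 0.489 (adjusted p = 0.00862), and the groups were far apart. After Mb and Myh1 came Egln3, an oxygen-dependent prolyl hydroxylase acting on hypoxia-inducible factors. Egln3 (chr12:55279968-55304847) rose from 25.3, 25.3 and 22.5 to 94.2, 137 and 80.5, by 2.02 ± 0.22. It shared the lowest adjusted p of the comparison (0.0028) with Ndufb10 and Atp5g3, described with the respiratory chain. Atp1b1, the beta subunit of the sodium pump, followed with 72.9, 74.8 and 45.1 against 174, 279.9 and 151 (1.62, adjusted p = 0.0275), as did Actn2. Idh2, the mitochondrial isocitrate dehydrogenase that makes NADPH, rose by 1.57, the LIM-domain protein Fhl1 by 1.49, the heart-type fatty acid-binding protein Fabp3 by 1.41 and Lmcd1, another LIM-domain protein, by 1.27.

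**Figure D2:**
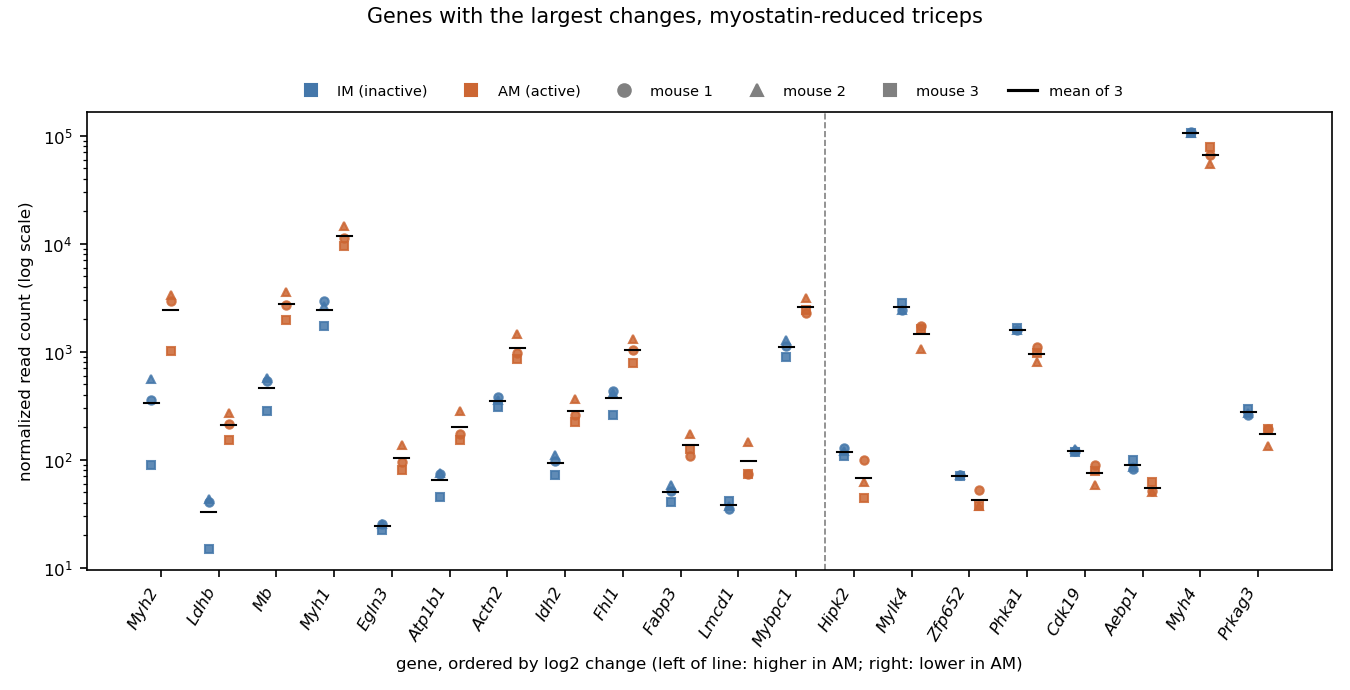
Normalized read counts per mouse, on a log axis, of the genes with the largest rises and falls among called genes averaging 50 or more. Points are single mice of the inactive (IM) and active (AM) groups, bars are means of 3, and the groups do not overlap in any gene shown, as the naming rule required.

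The largest falls at that level were smaller than the rises. Hipk2, a nuclear protein kinase, went from 128, 119 and 108 to 98.7, 62.2 and 43.9 (-0.86 ± 0.22, adjusted p = 0.0339). Its AM mice were widely spread, and it stayed called in 13 of 20 other settings. Phka1, the regulatory alpha subunit of muscle phosphorylase kinase, which switches on glycogen breakdown, fell from 1572, 1577 and 1639 to 1094, 806 and 977 (-0.75 ± 0.148, adjusted p = 0.0133). Prkag3, the gamma subunit of AMP-activated kinase found in glycolytic muscle, fell from 257, 271 and 292 to 192, 135 and 191 (-0.68 ± 0.175, adjusted p = 0.0354). In both the AM mice were clearly lower than the IM mice. The zinc-finger gene Zfp652 (-0.76), the Mediator kinase gene Cdk19 (-0.70), the matrix-associated Aebp1 (-0.70), Mylk4 and Myh4 completed this group. The falls with the smallest p-values were those of the phosphatase gene Ppm1l (-0.52), the dynein heavy chain Dync1h1 (-0.37, but -0.16 with adjusted p = 0.166 once the trend of transcript length and GC content was removed), the muscle ubiquitin ligase subunit Fbxo40 (-0.47), the small GTPase Rragd, which acts in nutrient signalling (-0.43), and Ccdc88c (-0.52). Below that level, and chosen after the values were seen, Cdh4, a cadherin, went from 13.8, 32.5 and 21.8 to 5.04, 1.23 and 3.85 (-2.48, adjusted p = 0.0092). Its mean in AM mice was 3.37, so it was tested only through the inactive mice, which favours a fall.

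Of 76 tested nuclear genes for subunits of complexes I to V, 68 were called higher and none lower, against 5.29% of all genes called higher, and each of the 76 had a higher mean in AM mice. Complex I, which takes electrons from NADH, had 31 of 35 genes called with a median change of 0.39, and complexes II to V had 37 of 41 with a median of 0.44. Ndufb10, a subunit of complex I, stood at 197, 191 and 188 in IM mice and at 282, 313 and 298 in AM mice (0.63 ± 0.0699, adjusted p = 0.0028). Atp5g3, one of 3 genes for the ring subunit c of ATP synthase, stood at 412, 410.0 and 376 and at 661, 743 and 708 (0.82 ± 0.094, adjusted p = 0.0028). Both groups were tight and far from each other. The second subunit c gene, Atp5g1, rose by 0.85 (adjusted p = 0.00601), Uqcrq of complex III by 0.75, Cox5a of complex IV by 0.50 and Sdhb of complex II by 0.78. AM mouse 2 was the highest active mouse in 27 of the 35 complex I genes and 35 of the 41 others, and AM mouse 1 the lowest in 31 and 34. Without AM mouse 2 the called genes numbered 12 in complex I and 15 in complexes II to V. They were between 15 and 23, and between 16 and 30, when an IM mouse was left out. With the trend of transcript length and GC content removed they were 21 and 22.

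Of the 13 protein-coding genes of the mitochondrial genome, ND5 and ND3, both for complex I subunits, were called higher (15.4%, against 5.29% of all genes). The median change was 0.24, against 0.01 in wild-type mice, 12 of the 13 had a higher mean in AM mice, and 7 did not overlap between the groups, where 14.4% of all genes were higher without overlap. ND5 stood at 352, 313 and 297 in IM mice and at 495, 581 and 523 in AM mice (0.73, adjusted p = 0.00792). The ND3 change was 0.55 (adjusted p = 0.0182, and 0.0921 without AM mouse 2). In wild-type mice ND5 also rose by 0.54 and ND3 by 0.34, with all AW mice above all IW mice. The limma interaction had an unadjusted p under 0.05 in 2 of the 13 and passed adjustment in none. Without AM mouse 2 or any 1 IM mouse 1 of the 13 was called, and 5 were called with the slow-fibre score as a covariate. The protein-synthesis machinery of mitochondria rose in part. Of 73 mitochondrial ribosome genes, 19 were called higher (26.0%, against 5.29% of all genes), with a median of 0.21. Mrpl12 was the one with the smallest p-value, from 83.0, 78.9 and 78.0 to 109.9, 127 and 112 (0.53, adjusted p = 0.00792). The calls of this list were 5 without AM mouse 2 and 6 to 10 without AM mouse 3 or an IM mouse. Cytosolic ribosomal proteins had 0 calls among 46 genes in limma, with 4 at an unadjusted p under 0.05 and 2 calls without AM mouse 1. Over all genes 26.2% had such an unadjusted p.

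Genes that feed the respiratory chain were also among those called higher. In the TCA cycle and pyruvate list, 18 of 28 genes (64.3%) were called and all were higher, with a median of 0.35. Over all genes 5.29% were called higher. Among them were Brp44, a mitochondrial pyruvate carrier subunit (161, 157 and 159 against 199, 230.2 and 226), Dlst of the oxoglutarate dehydrogenase complex (0.51), Pdhb of pyruvate dehydrogenase (0.43) and Sdhd, the membrane anchor of succinate dehydrogenase (0.48). In the malate-aspartate shuttle and lactate list, 8 of 14 genes were called, all higher, with a median of 0.48. Of the 6 others, Gpd2 (-0.46), Slc16a3 (-0.39), Gpd1 (-0.38) and Ldha (-0.26) lay lower in all AM mice without passing the test. The cytosolic enzymes of the shuttle, which carries NADH electrons into mitochondria, both nearly doubled. Got1 went from 345, 323 and 288 to 626, 727 and 556, and Mdh1 from 468, 439 and 400.4 to 861, 969 and 759.9. Neither overlapped between the groups. Slc16a1, a lactate and ketone body transporter, rose by 0.67 (adjusted p = 0.0313). Without AM mouse 2 the TCA calls were 4 and the shuttle calls 3, and without 1 IM mouse they were 5 to 10 and 4 to 6. Without AM mouse 3 the TCA calls were 12.

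Of 37 fatty acid genes tested, 25 were called (67.6%), all higher, with a median change of 0.54, where 5.29% of all genes were called higher. Uptake and storage genes included Fabp3, at 50.8, 58.2 and 40.5 in IM mice against 107, 171 and 127 in AM mice, the fatty acid transporter Cd36 (1.14), lipoprotein lipase Lpl (1.13) and Dgat2, which makes triglyceride (1.59). Beta-oxidation enzymes included Acaa2, the thiolase of the last step (1.21), and Acadl, the long-chain acyl-CoA dehydrogenase, which went from 157, 180.2 and 125 to 308, 409.6 and 320.1 (1.17, adjusted p = 0.00858). In each of these genes every AM mouse was above every IM mouse. Cpt1b, the muscle form of the enzyme that admits long-chain fatty acids to mitochondria, overlapped (16.8, 15.7 and 12.8 against 15.3, 17.3 and 17.6). All 4 ketone body genes were called higher, but Bdh1, with a mean of 5.44 in IM mice, was tested only because of its level in the active mice, as was 1 of the fatty acid genes. Bdh1, which oxidizes the ketone body beta-hydroxybutyrate, had the largest rise of any called gene, from 5.38, 9.0 and 1.93 to 69.7, 91.1 and 38.3. Its means differed 12.2-fold, and the log2 change of 3.47 ± 0.547 (adjusted p = 0.00813) understates this because 1 was added to each value before taking logarithms. Oxct1 (0.63) and Acat1 (0.53), the following steps of ketone use, rose less. The fatty acid calls were 5 without AM mouse 2 and 14, 12 and 7 without IM mouse 1, 2 or 3. The ketone calls were 1 without AM mouse 2 or IM mouse 3 and 2 without either other IM mouse.

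Among the other oxidative lists, 1 gene of complexes II to V and 2 mitochondrial ribosome genes also entered through the active mice. Together, the 8 lists of oxidative metabolism, mitochondrial ribosome included, held 239 tested genes, of which 138 (57.7%) were called higher and none lower. They made up 36.0% of all genes called higher. For comparison, 5.29% of all genes tested were called higher. The 138 became 148, 45 and 103 without AM mouse 1, 2 or 3 and 90, 69 and 54 without IM mouse 1, 2 or 3. They became 97 with the slow-fibre score as a covariate and 98 with the trend of transcript length and GC content removed.

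**Figure D3:**
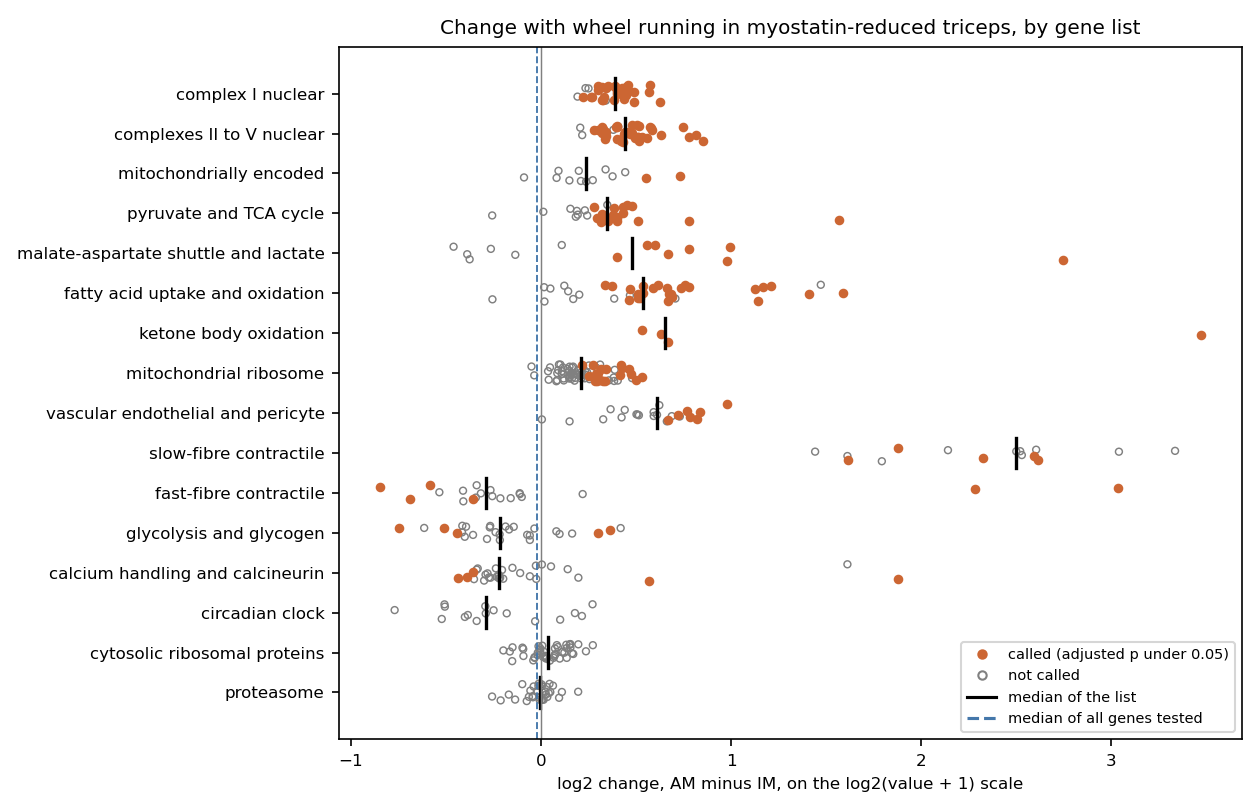
Log2 change between active and inactive myostatin-reduced mice for every tested gene of 16 lists. Filled points are called genes, open points are genes not called, bars are list medians and the dashed line is the median of all genes. Complex I genes lie around a median of 0.39 and the fatty acid genes around 0.54, whereas glycolysis genes lie around -0.22. Of the slow-fibre genes, 10 of 15 entered only through the active mice.

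Of 23 regulators of mitochondrial content tested, 4 rose and 3 fell (30.4% called, against 7.84% of all genes), with a median of 0.05. These 7 calls rested on single mice, with 0 without AM mouse 2, IM mouse 2 or IM mouse 3, 2 without IM mouse 1 and 10 without AM mouse 1. Those that rose were the estrogen-related receptors Esrra (0.39) and Esrrg (1.15), which activate mitochondrial genes, the mitochondrial deacetylase Sirt3 (0.58) and 2310042D19Rik, the gene now named Perm1, a muscle regulator of oxidative genes (0.70). Esrra stood at 104, 104 and 94.7 in IM mice and at 120.1, 148 and 129 in AM mice. Those that fell were the AMP-activated kinase subunits Prkag3 and Prkab2 (-0.63) and the corepressor Nrip1, from 24.2, 20.3 and 20.2 to 18.8, 8.47 and 9.71 (-0.83, adjusted p = 0.0308). The coactivator Ppargc1a, a central regulator of mitochondrial biogenesis, overlapped at 57.7, 51.0 and 44.2 against 61.9, 56.1 and 48.6 (0.12, adjusted p = 0.586), and Tfam, which packages mitochondrial DNA, changed by 0.05 (adjusted p = 0.656).

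The promoters of the called genes were searched for the element of estrogen-related receptors, TCAAGGTCA, on both strands. RefSeq promoter sequences (GRCm38.p6, from 250 bases before to 50 after the start) were found for 5868 of the 7242 genes. These genes had 1.25 to 1.31 promoters each on average, and a gene was counted if any of them held the motif. The element was held by 3 of 317 genes called higher (0.946%), by 0 of 143 called lower and by 14 of all 5868 (0.239%). Its core AAGGTCA, which lies within the element, was in 6.31% of genes called higher, 6.29% of those called lower and 3.7% of all. The nuclear respiratory factor core CGCATGCG was in 5.05%, 1.4% and 5.11%, and the MEF2 core TATTTATAG or TATTTTTAG in 1.26%, 2.8% and 1.16%. The 3 promoters of genes called higher with the whole element are shown, and Atp5g3 and Sdhd are members described above. Capitals mark the element, written as its reverse complement in Atp5g3 and Sdhd, and each window reads 5′ to 3′ on the strand of the gene. A match of letters is a description and not a bound site.
Atp5g3, chr2:73911360-73911388, minus strand: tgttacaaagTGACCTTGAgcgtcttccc
Msrb2, chr2:19371507-19371535, plus strand: tccgcgaagaTCAAGGTCAagaggagcaa
Sdhd, chr9:50603800-50603823, minus strand: ggttgtagagTGACCTTGAgccct
Relative to the start of the gene the element began at -52 in Atp5g3, at -119 in Msrb2 and at 37 in Sdhd. Msrb2, which repairs oxidized methionine in mitochondria and is named here for its element, rose from 18.4, 16.8 and 16.1 to 23.6, 25.8 and 23.5 (0.48, adjusted p = 0.00961).

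Of 14 oxygen-sensing genes, 5 rose and 1 fell (42.9% called, against 7.84% of all genes), and 3 were called without AM mouse 2, AM mouse 3 or any IM mouse. Besides Egln3 and Mb these included Egln1, another prolyl hydroxylase (288, 266 and 303 against 364, 391 and 377, a change of 0.40). Vegfa, the main angiogenic ligand, had 223, 203 and 164 against 224, 317 and 278, so that the groups nearly touched, and was just past the threshold (0.47, adjusted p = 0.0492). Hif1an, which inhibits hypoxia-inducible factors, fell from 508, 518 and 524 to 448, 379 and 407 (-0.33, adjusted p = 0.0367). The transcript of Hif1a itself changed by -0.23 (adjusted p = 0.183).

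All 23 tested genes of endothelial cells and pericytes had higher means in AM mice, with a median change of 0.61. A further 10 were under the minimum level, and 3 of the 23 passed it only through the active mice. Of the 23, 16 were higher without overlap between groups, where 14.4% of all genes were, and 7 were called, all higher, where 5.29% of all genes were. They comprised the ligand Vegfb (0.79), the receptor Kdr (0.84), which binds Vegfa, the angiopoietin receptor Tek (0.67) and its partner Tie1, the secreted endothelial factor Egfl7 (0.82), and the surface proteins Pecam1 (0.72) and Emcn (0.77). Tie1 rose from 22.2, 26.0 and 24.4 to 36.4, 65.1 and 48.4 (0.98 ± 0.199, adjusted p = 0.0142), and Kdr from 52.9, 42.1 and 51.0 to 65.2, 116 and 88.3. AM mouse 2 was again the highest active mouse, in 21 of 23 genes, and without it none of the 23 was called (limma), while 13 were called without AM mouse 1, 3 without AM mouse 3 and 2 without any 1 IM mouse. The summed level of vascular genes was 679 to 719.5 in IM mice against 886, 1342 and 1091 in AM mice. The median change was 0.61 over 4 smooth muscle markers and 0.74 over 3 Schwann cell markers tested, all with higher means in AM mice, but 2 of each passed the minimum level only through the active mice and had to be higher there. Smooth muscle markers summed to 41.0, 42.6 and 67.6 in IM mice and to 45.2, 104.5 and 87.3 in AM mice, and Schwann cell markers to 31.4, 32.3 and 55.8 and to 43.8, 83.4 and 62.3, with AM mouse 2 highest and AM mouse 1 lowest of the active mice in both, as for the vascular genes. The groups overlapped in both sums, and limma called 0 of these genes, with 1 of each list at an unadjusted p under 0.05, as had 26.2% of all genes. Leukocyte markers were at 139 to 200.3 in IM mice against 131 to 161 in AM mice, and fibroblast and tendon markers at 699 to 868 and 539 to 678, with 1 call, Gsn (-0.38). Of 3 adipocyte markers tested, Fabp4, which capillary endothelium also makes, was called higher (0.76), while Cfd (0.27) and Car3 (-0.28) were not. The adipocyte list, over 6 genes, summed to 4060 to 4516 in IM mice against 3164, 3093 and 4685 in AM mice. In AM mice 1 and 2 this sum lay below the IM mice, against the direction of Fabp4 and Cfd. It is not read as a level of adipocytes. The part of these cells in the vascular result was not tested.

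Glycolysis and glycogen genes had a median change of -0.22, and 5 of 28 were called (17.9%, against 7.84% of all genes), 3 of them lower. The 5 calls became 0 without AM mouse 2, IM mouse 2 or IM mouse 3 and 1 without IM mouse 1. Phka1, Phkb (-0.51), a further subunit of phosphorylase kinase, and Fbp2 (-0.44), the muscle fructose bisphosphatase, fell, while Ugp2 (0.30), which makes the glucose donor for glycogen, and Pfkfb1 (0.37) rose. Core enzymes such as Eno3 (-0.27), Gapdh (-0.22) and Pfkm (-0.24) had adjusted p-values of 0.123 to 0.161. The glucose transporter Slc2a4 (0.16) and hexokinase Hk2 (0.10) were not called. In the creatine kinase list, mitochondrial Ckmt2, which passes phosphate from new ATP to creatine, rose from 1097, 999 and 905 to 2310.2, 2547 and 1852 (1.15, adjusted p = 0.00813). The cytosolic Ckm changed by -0.26 (adjusted p = 0.232), and the ADP/ATP carrier Slc25a4 rose by 0.26 (adjusted p = 0.048, and 0.0592 with the replicate number as a block).

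Calcium handling and excitability genes were called in both directions (16.1% of 31 and 35.3% of 17, against 7.84% of all genes). The ryanodine receptor Ryr1, the calcium release channel, went from 7990.2, 7753 and 8721 to 5962, 5885 and 6858 (-0.39, adjusted p = 0.0257). With the trend of transcript length and GC content removed, its change was -0.19 (adjusted p = 0.397), and the call was lost. Camk2a (-0.44) and Nfatc3 (-0.36), which read calcium signals, fell as well, while Casq2 and the calcineurin regulator Rcan2 (0.57) rose. Nfatc3 also lost its call with the length and GC trend removed. Of 17 excitability genes, the sodium channel Scn4a (-0.29), the potassium channel Kcnj12 (-0.35), the channel subunit Abcc9 (-0.32) and the chloride channel Clcn1 (-0.25) fell, and the pump genes Atp1b1 and Fxyd6 (1.85) rose. Scn4a stood at 843, 857 and 914 in IM mice against 713, 686 and 732 in AM mice, without overlap, but its call too was lost with that trend removed (adjusted p = 0.0903), as was that of Abcc9 (-0.15, adjusted p = 0.0888). Without AM mouse 2 the calls in these lists of 31 and 17 genes went from 5 to 1 and from 6 to 0, and the same counts were found without any 1 IM mouse. Without AM mouse 3 the second list had 3.

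Of 21 antioxidant genes, 6 rose and 2 fell (38.1% called, against 7.84% of all genes). Those that rose were the mitochondrial Prdx5 (81.2, 75.4 and 74.6 against 117, 122 and 109.5), Txn2 (0.38), Sod2 (0.35) and Nnt (1.37), and Prdx2 (0.50) and Prdx6 (0.36). The cytosolic enzymes Nqo1 (-0.53) and Gclc (-0.52), known targets of the stress factor Nrf2, fell. Of 20 chaperones, 4 rose (20%, against 5.29% of all genes), namely the small heat shock protein Cryab (427, 395 and 487 against 759, 848 and 584, a change of 0.73) and the mitochondrial Hspe1 (0.32), Hspa9 (0.33) and Hspd1 (0.27). With the trend of transcript length and GC content removed, Hspe1 changed by 0.19 and lost its call (adjusted p = 0.157). In branched-chain amino acid use 4 of 22 rose (18.2%, against 5.29% of all genes), with Hibadh (0.35), Bckdhb (0.52), Hsd17b10 (0.28, adjusted p = 0.0592 with the block) and the glutamine transporter Slc38a3 (0.59). With that trend removed Hsd17b10 changed by 0.17 (adjusted p = 0.234) and Slc38a3 by 0.58 (adjusted p = 0.0517), and neither was called. Without AM mouse 2 the calls were 1 of 21, 0 of 20 and 1 of 22 in these 3 lists, and 1 to 3, 0 to 2 and 1 to 2 without 1 IM mouse. Without AM mouse 3 the last was 1.

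Calls in growth pathways were 5% to 9.09% of each list, close to the 7.84% of all genes. In the myostatin pathway 1 of 20 genes was called, the activin receptor Acvr1b, from 45.9, 48.6 and 49.5 to 36.3, 31.0 and 36.8 (-0.46, adjusted p = 0.0147). In the IGF, Akt and mTOR list, Tsc1, an inhibitor of mTOR (-0.30), and Rps6kb1, a kinase downstream of it (-0.35), fell among 25. These 2 calls became 0 without AM mouse 2, AM mouse 3, IM mouse 2 or IM mouse 3, and 0 with the length and GC trend removed. The myostatin pathway had 4 calls without AM mouse 1 and 0 without AM mouse 2, IM mouse 2 or IM mouse 3. Of 22 ubiquitin ligase and autophagy genes, Fbxo40 fell and the lysosomal protease Ctsl rose (0.25). Of 13 myogenic genes the transcription factor Mef2a fell, from 119, 119 and 106 to 105, 69.0 and 65.1 (-0.55, adjusted p = 0.0488), and of 26 matrix genes the protease inhibitor Timp2 (-0.42). Mef2a stayed called in 8 of 20 other settings. The myogenic list had 0 calls without AM mouse 2, AM mouse 3 or any 1 IM mouse, 0 with the length and GC trend removed and 3 without AM mouse 1. No gene was called by limma among 33 proteasome, 16 circadian clock, 9 immediate early or 11 neuromuscular junction genes, where 3, 6, 2 and 6 had an unadjusted p under 0.05. Over all genes 26.2% had such an unadjusted p. Without AM mouse 1 the clock list had 4 calls and the neuromuscular junction list 2. With the replicate number as a block, 5 more named genes passed, namely Gdf11, the closest relative of Mstn (-0.60, adjusted p = 0.0415), the mTOR partner Rictor (-0.41, 0.0453), the clock factors Rora (-0.77, 0.0295) and Hlf (-0.51, 0.0437), and the muscle cofactor Vgll2 (0.96, 0.0414). Gdf11 had a mean of 9.32 in AM mice, so it was tested only through the inactive mice, which favours a fall.

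In wild-type mice the same comparison called 2 genes with limma, and 1068 had an unadjusted p under 0.05, against 1900 in myostatin-reduced mice. The 2 were Egln3, at 35.7, 21.1 and 31.4 in IW mice and 67.3, 101.6 and 103.9 in AW mice, and 2610029I01Rik (0.66). Both were called in AM mice as well. A difference in the number of calls does not show that the responses differed, and in the test of the difference itself 0 genes passed (limma interaction, lowest adjusted p = 0.888) and 300 had an unadjusted p under 0.05. Of the 383 genes called higher in AM mice, 376 were also higher in AW than in IW mice, with a median change of 0.29 against 0.47. Of the 185 called lower, 175 were also lower in AW mice, with medians of -0.18 and -0.41. Since the genes were picked for their change in the myostatin-reduced mice, part of this gap comes from the choice. The nuclear genes of complexes I to V had medians of 0.42 and 0.30, and 4 of the 76 had an unadjusted interaction p under 0.05.

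**Figure D4:**
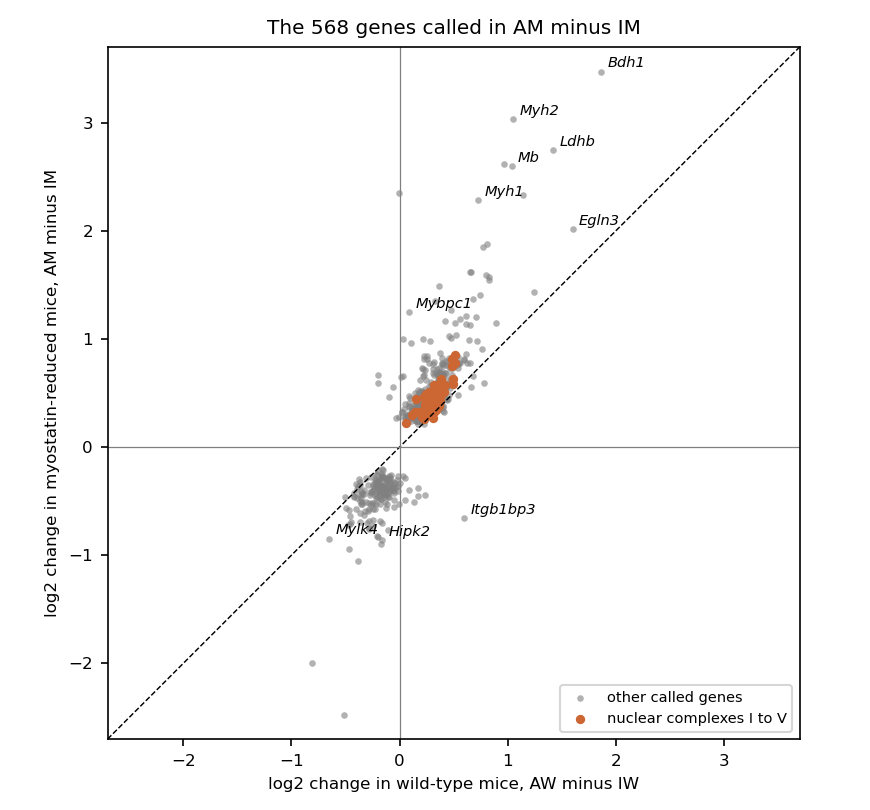
Log2 change with running in myostatin-reduced mice (y axis) against that in wild-type mice (x axis) for the 568 genes called in the former, with the nuclear genes of complexes I to V coloured and the diagonal marking equal change. Points are genes. Most lie on the same side of 0 in both genotypes and farther from 0 on the y axis, which selection on that axis favours.

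For the fibre-type genes Myh1 and Mybpc1 the levels of all 4 groups are described. IM mice were not tested against IW mice, and neither gene passed the limma interaction test (adjusted p = 0.888). Myh1, with an unadjusted interaction p of 0.00466, was at 11089, 3920 and 6200.0 in IW mice and 8406, 11562 and 12563 in AW mice. The 2 active groups thus covered similar ranges, while all IM mice lay below all IW mice. Mybpc1 was at 3285, 1557 and 2693 in IW mice and 1859, 3335 and 2689 in AW mice, a change of 0.09 against 1.25 in myostatin-reduced mice. Its unadjusted interaction p in the limma fit was 0.00851. The slow-fibre list itself was uneven among wild-type mice, from 1618 to 5369 in IW and 3083 to 7906 in AW mice. At averages of 50 or more, the smallest interaction p-values of the limma fit were those of 4832428D23Rik (an interaction of -1.41), Itgb1bp3 (-1.26), Klhdc3 (0.48), Tbc1d1 (0.64) and Slc38a3 (0.79). The adjusted p was 0.888 in each. Itgb1bp3, a nicotinamide riboside kinase gene of muscle, stood at 309, 300.4 and 349 in IM and 211, 216 and 179 in AM mice (-0.66, adjusted p = 0.0488, and 0.0639 with the block), but at 157, 198 and 309 in IW and 364, 296 and 310 in AW mice. Tbc1d1, which controls glucose transporter traffic, differed by -0.70 between AW and IW mice and by -0.06 between AM and IM mice.

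The direction of change was related to transcript length. Genes called higher had a median longest transcript of 1935 bases and genes called lower one of 5796 bases, against 3262 for all genes with a known length. Under 1000 bases, 19.6% of 357 genes were called higher and 0.28% lower. At 8000 bases and above, 0.501% of 399 genes were called higher and 10.5% lower. The median change fell from 0.10 in the first of these bands to -0.19 in the last, and in wild-type mice from 0.09 to -0.04. Many respiratory chain and mitochondrial ribosome genes are short, and Ryr1 and Dync1h1 are long. With each value taken relative to its gene's mean over all libraries, the median of genes of 4000 bases or more minus that of genes under 1000 bases was 0.116, 0.143 and 0.0891 in IM mice against 0.0338, -0.0957 and -0.194 in AM mice, and so it differed between libraries. When the trend with length and GC content was removed from each library, 406 genes were called, 290 higher and 116 lower, 330 of them among the 568. Complex I then had 21 called genes, complexes II to V 22, the fatty acid list 18 and the vascular list 7. Of the called genes followed singly in every setting, 19 lost their call, namely Abcc9, Ctsl, Dync1h1, Esrra, Gsn, Hif1an, Hsd17b10, Hspe1, Mef2a, Myh4, Pfkfb1, Phkb, Rps6kb1, Ryr1, Scn4a, Sirt3, Slc25a4, Slc38a3 and Tsc1. Other genes named here were followed only through the counts of their lists. By those counts Ankrd2, Vegfa and Nfatc3 also lost their calls, as did Clcn1, Fxyd6 or both.

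**Figure D5:**
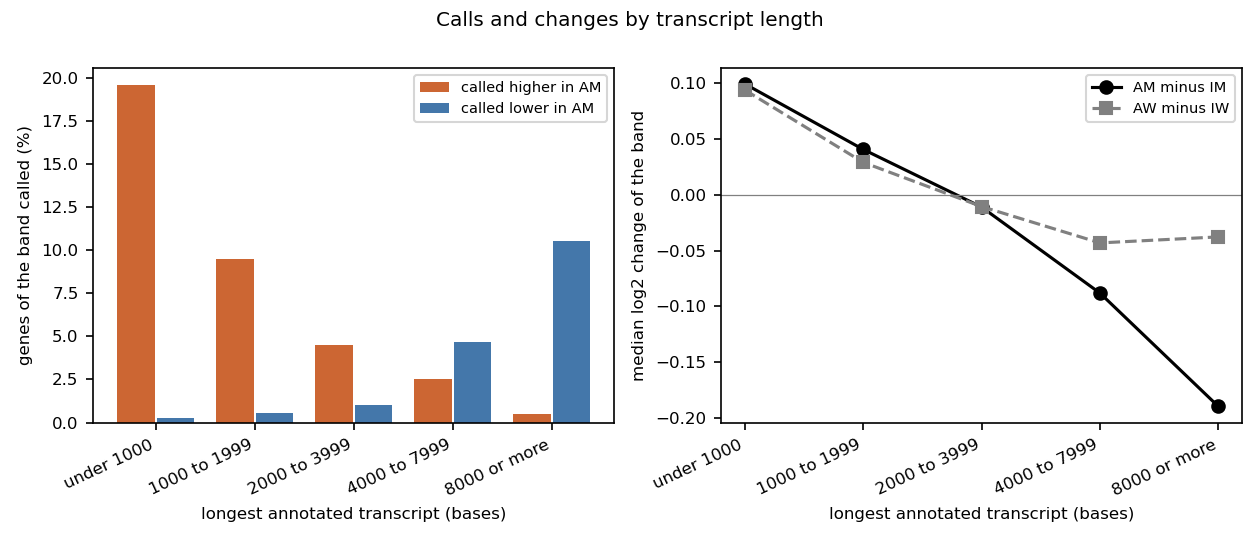
Share of genes called higher and lower in active myostatin-reduced mice, and the median log2 change, by the length of the longest transcript in bases. Calls are of genes tested in each band. The share called higher declines from 19.6% under 1000 bases to 0.501% at 8000 bases and above, while the share called lower rises from 0.28% to 10.5%.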

How the data were processed

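Polyadenylated RNA of 12 triceps was sequenced as single-end reads. Per the labels and the methods of the study, the authors mapped reads with CASAVA (version not given) to mm9 and counted them in RefSeq exons. The values deposited are signals in normalized read counts, which the authors scaled to equal trimmed means (5% removed at each end) without dividing by length. Whether strand was used is not given in the sources used here, nor is the promoter driving Cre. Of the values under 5, 90.2% to 92.8% were whole within 0.1 of a read, but between 100 and 300 only 63.8% to 67.8% were, so whole reads were not recovered for nearly all genes, no count model was used, and depth was read off the spacing of the lowest values, taken as the worth of 1 read.

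Values were tested as log2(value + 1) with limma 3.58.1 in R 4.3.3, with a mean for each of the 4 groups, a trended prior, two-sided p-values and Benjamini-Hochberg adjustment over 7242 genes. Genes were called at an adjusted p under 0.05. Log2 changes are on that scale and understate changes of low values. Errors of log2 changes are standard errors. Members, gene lists and alternatives were chosen with earlier results of these data known, and lists are described by counts and medians without a test.

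Genes named are Mstn, the 12 largest rises and 8 largest falls among called genes with a mean of at least 50 and no overlap between groups, the 5 smallest p-values in each direction and for the interaction at that level, members of the lists, and genes next to the minimum. Others are marked as chosen after their values were seen. Positions are mm9 (NCBIM37), transcript lengths were found for 98.95% of genes, and promoters are from RefSeq.

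Replicate numbers stand for different mice. Deviations from the group means of same-numbered IM and AM mice correlated at 0.228, 0.162 and 0.323, all above 0.1, so the numbers were treated as pairing these mice in an alternative fit. Differently numbered IM and AM mice correlated at -0.291 to 0.149, so pairing by number is not shown. Same-numbered IW and AW mice correlated at -0.531, -0.429 and 0.153. Alternatives were the pseudocount, the filter, the scaling, sample weights, no trend, the 6 samples alone, a replicate block, the slow-fibre score as a covariate, leaving out each mouse and, chosen after seeing the data, removal of the length and GC trend.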

Additional observations from a re-analysis of the deposited data

Results flagged for a closer look

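Klhdc3, a Kelch-domain gene (chr17:46811499-46817879 in mm9), was singled out as the only named gene whose 2 genotypes moved in opposite directions with complete separation of the mice. It stood at 70.5, 64.8 and 66.6 normalized reads in IM mice against 75.4, 80.2 and 88.8 in AM mice, but at 90.9, 91.1 and 92.3 in IW mice and 83.7, 71.1 and 83.0 in AW mice. The change was 0.27 in myostatin-reduced and -0.21 in wild-type mice, a difference of 0.48 on the log2 scale (limma interaction, unadjusted p = 0.000977, adjusted p = 0.888 over all genes). Complete separation in opposite directions was found in 17 of the 7242 genes. Mynn, not among the named genes, had the smallest interaction p of the 17 (limma, unadjusted p = 0.000404). Whether 17 is more than chance would give was not tested. Groups of 3 mice are too small for the test of single outlying samples.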

How the results depend on the processing

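The 568 calls between AM and IM mice numbered 937 with sample weights and 244 with the slow-fibre score as a covariate. With a replicate block they were 630, and among single named values this block removed 3 calls and added 5. They were 406 with the length and GC trend removed, 398 with the block as well, and 507 to 585 under other pseudocounts, filters, scalings, the 6 samples alone or no trend. Leaving out 1 mouse gave 90 to 1097. The share of calls that were higher was 67.4%, and it was 54.4% with sample weights, 55.0% at a mean of at least 50, 77.9% with the covariate and 48.4% (without AM mouse 1) to 87.8% (without AM mouse 2) when 1 mouse was left out. All 568 kept their direction in every setting that tested them, except Myh4, which was 0 under quantile normalization, and 1 gene with the length and GC trend removed. In wild-type mice the 2 calls became 41 at a mean of at least 50, 1 with median-of-ratios scaling, 0 with the 6 samples alone, 417 with sample weights, 0 with the replicate block, 24 with the covariate, and 4 with the trend removed. Leaving out 1 mouse gave 0 to 201, the most without AW mouse 1. The interaction had 0 to 1 calls when 1 mouse was left out, 1 of them without IW mouse 3. Egln3, Atp5g3, Mb, Myh1 and Ppm1l were called in 20 of 20 settings, Ldhb in 19, Mylk4 in 18, Myh2 in 16 and Myh4 in 11. Over the named genes followed singly, 2687 values kept their side of the threshold, 316 lost it, 57 gained it and 10 changed sign. The last came from 5 genes not called in either setting, Car3, Csf1r, Lmod1, Tbc1d1 and Ttn. No called value of a named gene turned to the opposite sign. The cause of these shifts was not tested.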

Other observations

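Some genes below a mean of 50 were chosen after their values were seen, and none of them was called in the interaction by limma. Cyp26b1, which breaks down retinoic acid, stood at 11.2, 5.73 and 2.76 normalized reads in IM mice against 38.8, 33.7 and 28.9 in AM mice, with 2.61, 8.95 and 21.6 in IW and 5.97, 21.2 and 4.21 in AW mice. Its mean in IM mice was under 10, so it was tested only through the active mice, which favours a rise. Casr, the calcium-sensing receptor, went from 18.7, 18.6 and 20.5 to 9.66, 9.71 and 10.4 in myostatin-reduced mice, while IW mice were at 10.2, 12.9 and 6.68 and AW mice at 9.35, 9.13 and 6.98 (limma interaction, unadjusted p = 0.0144). Its mean in AM mice was 9.92, so it was tested only through the inactive mice, which favours a fall. Igfn1, a muscle protein with immunoglobulin-like and fibronectin domains, went from 43.7, 46.6 and 54.0 to 14.9, 13.9 and 6.80 (-1.99, adjusted p = 0.0124 in limma). It was at 46.7, 71.0 and 76.8 in IW and 49.1, 16.1 and 57.1 in AW mice.

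4832428D23Rik stood at 75.2, 83.8 and 58.9 in IM and 40.2, 50.3 and 70.4 in AM mice, against 3.95, 2.95 and 2.71 in IW and 8.4, 6.33 and 6.67 in AW mice. Levels of this gene thus separated the genotypes by far more than the activity groups. Mitochondrial Nnt, which links NADH to NADPH, stood at 17.7, 19 and 16.4 in IM and 46.4, 61.0 and 37.7 in AM mice (1.37, adjusted p = 0.0202).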
